A study of Rattus norvegicus with 16 samples.

Results

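The genes that carry the lipopolysaccharide (LPS) signal into the nucleus were followed through the 4 conditions of the study. The set holds 9 genes of the 30560 listed: the receptor genes Tlr4, Cd14 and Tlr2, the adaptor gene Myd88, the NF-kB subunit genes Rela, Nfkb1 and Nfkb2, and the inhibitor genes Nfkbia and Tnfaip3. Members were chosen by identifier, and the definition of the set gave their symbols. The files carry no names and the name table used here pairs none with Ensembl identifiers, so this pairing was not checked. All 9 passed the filter on low counts, as did 11902 genes in all. The lowest value of a member in a library was 348 estimated counts and the highest 52205.

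RNA was sequenced from primary rat microglia (macrophages that reside in the brain) of wild-type genotype, at day 12 in vitro. The 4 groups of 4 libraries were LPS+ApoA-I, LPS, ApoA-I and Control. LPS, the outer-membrane glycolipid of Gram-negative bacteria, was used at 100 ng/ml for 20 hours, and apolipoprotein A-I (ApoA-I), which makes up most of the protein of high-density lipoprotein, at 100 ug/ml; Control cells received neither. Library totals lay between 12304916 and 17262383 estimated counts. The libraries LPS 4 and ApoA-I 2 stood apart from their groups: chi-square between replicates was 78.4 to 96.2 times its degrees of freedom for pairs with LPS 4 and 4 to 5.26 times for other LPS pairs, and 54.6 to 72.4 times for pairs with ApoA-I 2 and 8.35 to 12.3 times for other ApoA-I pairs. The share of counts in 8 abundant genes that vary together was 2.08% in LPS 4 and 10.2% to 12% in other LPS libraries, and 9.43% in ApoA-I 2 and 1.61% to 2.66% in other ApoA-I libraries. Leaving out LPS 4 changed 1 call of a member, that of Tlr2 in LPS+ApoA-I against LPS, and leaving out ApoA-I 2 changed none. No label states that replicates came from different cultures or animals; p-values therefore reflect the spread among these libraries alone, and that spread may be technical. The labelled cell type was not checked against marker genes, because their identifiers are not named.

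As background, LPS is handed by CD14 to the receptor TLR4, which signals through the adaptor MyD88 and a kinase cascade. That cascade degrades IkBa, the product of Nfkbia, and releases NF-kB dimers such as p65 (Rela) with p50 (made from the Nfkb1 precursor) into the nucleus. Nfkb2 gives p52, the subunit of the non-canonical branch. NF-kB raises the genes of its own inhibitors: IkBa recaptures the dimers, and A20, encoded by Tnfaip3, is a ubiquitin-editing enzyme that shuts down signalling upstream. TLR2 recognises bacterial lipoproteins and uses the same adaptor.

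NF-kB binds 10-base kB sites, and promoter windows of the 9 genes were searched for the kB consensus on both strands. The windows, from RefSeq on the build GRCr8, hold 250 bases before and 50 from the annotated start of each gene; 1 start per gene was searched, and all 9 symbols had a window. The consensus was read as 3 G, a purine, any base, 3 pyrimidines and 2 C, and was found in 5.02% of all 33469 promoter windows, and in 5 of the 9 windows (Tlr2, Nfkb1, Nfkb2, Nfkbia and Tnfaip3). With A or T instead of a pyrimidine at base 6 of the site, a form tried after the windows had been read, the same 5 genes matched, against 4.18% of all windows, and Tnfaip3 and Tlr2 each gained 1 match, in Tlr2 overlapping the first. The windows of 4 of these genes are printed because they hold a match within 67 bases of the start and the genes rose by more than 1 log2 unit with LPS under the TMM scaling used below; Cd14, without a match, rose as much. Tlr4 is printed as the window of the 1 member that fell. Letters in capitals are the matches to the form with 3 pyrimidines.
Nfkbia, chr6:78597023-78597322, minus strand: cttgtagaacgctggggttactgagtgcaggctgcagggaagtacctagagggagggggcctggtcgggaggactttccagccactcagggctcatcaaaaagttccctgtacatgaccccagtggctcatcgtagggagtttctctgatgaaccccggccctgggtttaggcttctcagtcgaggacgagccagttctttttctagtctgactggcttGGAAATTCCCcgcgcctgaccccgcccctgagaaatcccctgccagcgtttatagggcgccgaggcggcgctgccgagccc
Tnfaip3, chr1:15543930-15544229, minus strand: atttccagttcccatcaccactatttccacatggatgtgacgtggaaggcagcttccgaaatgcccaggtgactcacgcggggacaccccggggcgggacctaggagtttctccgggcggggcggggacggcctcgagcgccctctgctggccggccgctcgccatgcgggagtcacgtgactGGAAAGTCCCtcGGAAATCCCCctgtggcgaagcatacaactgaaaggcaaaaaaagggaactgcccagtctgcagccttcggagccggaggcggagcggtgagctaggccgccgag
Nfkb1, chr2:226805413-226805712, minus strand: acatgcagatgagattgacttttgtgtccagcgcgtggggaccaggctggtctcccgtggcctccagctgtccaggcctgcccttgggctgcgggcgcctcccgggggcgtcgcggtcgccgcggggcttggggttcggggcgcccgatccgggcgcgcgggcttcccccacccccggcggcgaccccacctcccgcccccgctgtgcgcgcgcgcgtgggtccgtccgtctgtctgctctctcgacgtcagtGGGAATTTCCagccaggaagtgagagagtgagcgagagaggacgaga
Nfkb2, chr1:255108124-255108423, plus strand: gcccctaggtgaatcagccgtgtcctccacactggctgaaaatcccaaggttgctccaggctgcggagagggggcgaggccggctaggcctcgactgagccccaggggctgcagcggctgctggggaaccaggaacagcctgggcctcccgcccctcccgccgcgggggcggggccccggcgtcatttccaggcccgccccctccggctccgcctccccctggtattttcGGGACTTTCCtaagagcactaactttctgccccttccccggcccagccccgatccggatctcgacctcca
Tlr4, chr5:85160997-85161296, plus strand: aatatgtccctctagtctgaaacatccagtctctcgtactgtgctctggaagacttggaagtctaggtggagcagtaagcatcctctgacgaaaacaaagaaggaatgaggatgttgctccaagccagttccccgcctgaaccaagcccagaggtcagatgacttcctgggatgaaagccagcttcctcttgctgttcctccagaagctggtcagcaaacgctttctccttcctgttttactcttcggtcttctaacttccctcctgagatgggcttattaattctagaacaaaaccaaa

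Read 5′ to 3′ on the strand that matched, the site was GGGAATTTCC in Nfkbia and Nfkb1 and GGGACTTTCC in Nfkb2. Tnfaip3 held a pair of sites, GGGACTTTCC and GGGGATTTCC, that began 67 and 55 bases before the start. The Nfkbia match began 31 bases and the Nfkb2 match 20 bases before the start, and the Nfkb1 match began at base 4 of the transcript. Tlr2 held the palindrome GGGAATTCCC, which began 205 bases before the start. A match is a sequence description and no measure of binding. Neither form matched in the windows of Tlr4, Cd14, Myd88 and Rela.

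**Figure D1:**
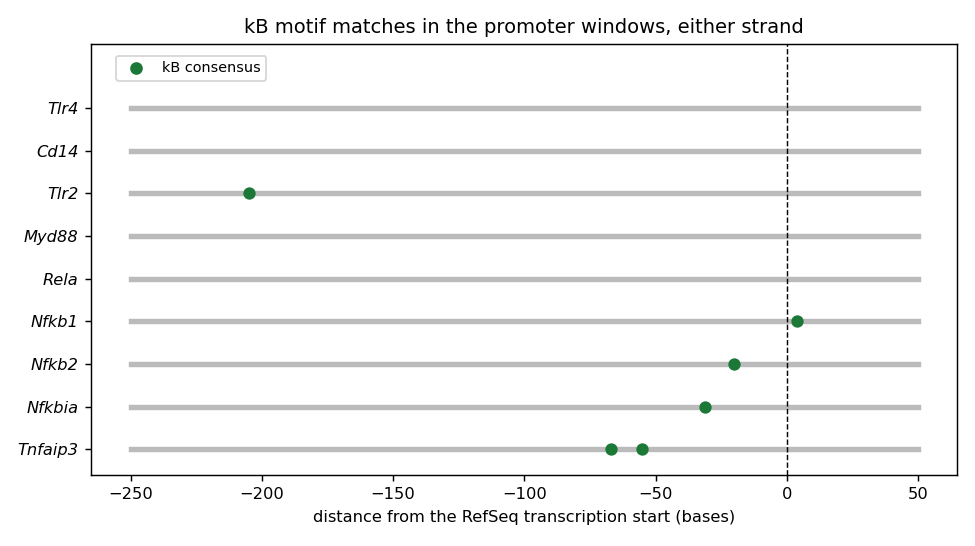
Matches to the kB consensus (circles) in the promoter windows of the 9 genes; the x axis is the distance from the RefSeq start in bases, and each mark stands at the first base of a match. Nfkb1, Nfkb2, Nfkbia and Tnfaip3 hold a match within 67 bases of the start, and Tlr2 holds 1 that begins 205 bases before it.

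LPS against Control asked how the pathway's own transcripts stand after 20 hours of LPS. All 9 genes passed the test (edgeR's quasi-likelihood test, Benjamini-Hochberg adjusted over all tested genes, threshold 0.05): 8 were higher, where 36.3% of all tested genes were, and Tlr4 was lower, where 38.4% were. Of the 8, Myd88 and Rela had a negative value with library totals. Since 74.7% of all genes passed, a call alone says little about this set. By more than 1 log2 unit, 5 of the 9 changed (Cd14, Nfkb1, Nfkb2, Nfkbia and Tnfaip3), against 30.1% of all tested genes. With library totals, and with limma on log2(TPM + 1), there were 4: Cd14, Nfkb2, Nfkbia and Tlr4, the last downward. For these other scalings the share of all tested genes past 1 log2 unit was not worked out, here or in later comparisons. The median log2 fold change was 1.16 over the 9 genes and -0.04 over all tested genes. Values below are CPM (counts scaled to a common library size after TMM), and in this bulk RNA fewer cells of a type and less RNA per cell cannot be told apart. Scaling matters in this series: with library totals in place of TMM the median log2 fold change of all genes was -0.42 in LPS against Control, -0.30 in LPS+ApoA-I against ApoA-I, 0.18 in LPS+ApoA-I against LPS, -0.24 in LPS+ApoA-I against Control and 0.13 in the interaction. The share of higher genes among the calls was 48.6% with TMM and 25.5% with library totals in LPS against Control, and 51.4% and 71.8% in LPS+ApoA-I against LPS. Log2 fold changes below are those with TMM, which places the bulk of genes near 0, and calls that library totals or TPM change are named.

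**Figure D2:**
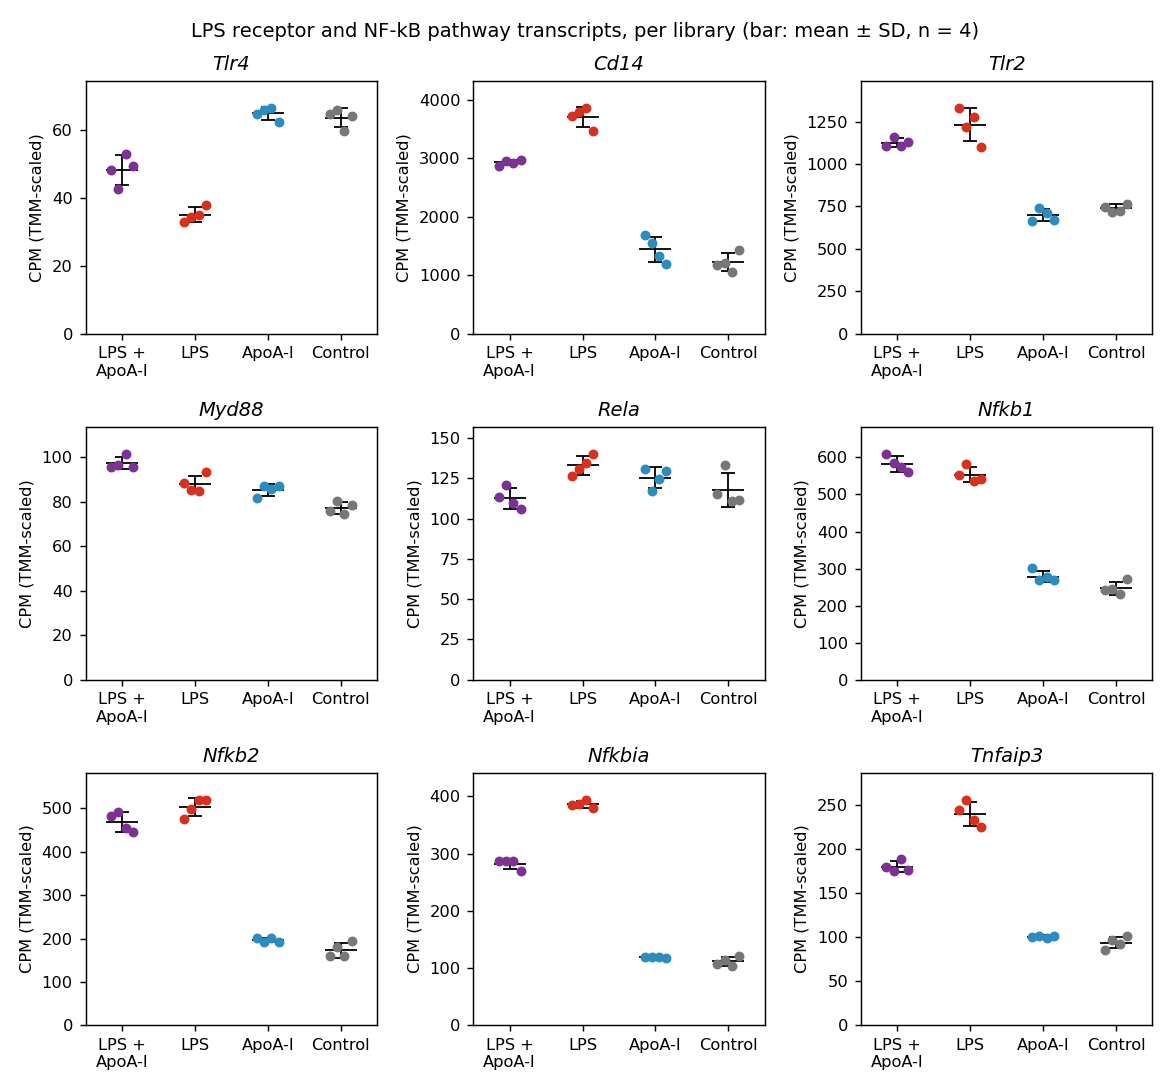
CPM (TMM-scaled) of the 9 genes in each library; points are libraries, and bars the mean ± SD of the 4 libraries of LPS+ApoA-I, LPS, ApoA-I and Control. Tlr4 is lowest in LPS libraries (32.8 to 38.0 CPM), while Nfkbia and Tnfaip3 are highest there, above all LPS+ApoA-I libraries.

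Tlr4 (ENSRNOG00000010522), the receptor that senses LPS, was the only one of the 9 genes called lower in LPS against Control with this scaling. Its level was 48.2, 42.5, 52.9 and 49.2 in LPS+ApoA-I, 32.8, 34.2, 35.0 and 38.0 in LPS, 64.7, 66.0, 66.4 and 62.3 in ApoA-I and 64.6, 66.0, 59.6 and 64.2 CPM in Control libraries. The LPS libraries were the lowest of all and the LPS+ApoA-I libraries lay between them and the untreated cells, without overlap on either side, whereas ApoA-I and Control libraries overlapped. LPS against Control gave log2 fold change -0.86, SE 0.07, edgeR adjusted p = 1.01e-10. LPS+ApoA-I against LPS gave log2 fold change 0.46, SE 0.07, edgeR adjusted p = 7.28e-06, a level 1.37 times that with LPS alone. Both calls held under the 27 alternatives tried, with log2 fold changes of -1.28 to -0.83 and 0.41 to 0.61.

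Cd14 (ENSRNOG00000017819), the co-receptor that loads LPS onto TLR4, moved the other way. It had 2869, 2952, 2918 and 2971 CPM in LPS+ApoA-I, 3723, 3785, 3855 and 3460 in LPS, 1683, 1554, 1333 and 1195 in ApoA-I and 1175, 1217, 1060 and 1434 in Control libraries. Every LPS library was above every LPS+ApoA-I library, and these were above all libraries without LPS. Cd14 rose 3.03-fold in LPS against Control (log2 fold change 1.60, SE 0.09, edgeR adjusted p = 3.78e-13). It fell in LPS+ApoA-I against LPS by 0.34 log2 units (SE 0.09, edgeR adjusted p = 0.00297), but not with library totals (log2 fold change -0.19, edgeR adjusted p = 0.0979) nor with limma on log2(TPM + 1) (-0.20, adjusted p = 0.116).

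Tlr2 (ENSRNOG00000009822), the lipoprotein receptor, had 1105 to 1159 CPM in LPS+ApoA-I, 1101 to 1329 in LPS, 664 to 744 in ApoA-I and 715 to 767 in Control libraries. The libraries with LPS lay above all libraries without it, and ApoA-I made no separation: LPS+ApoA-I overlapped with LPS, and ApoA-I with Control. Tlr2 rose in LPS against Control by 1.67-fold (log2 fold change 0.74, SE 0.06, edgeR adjusted p = 7.62e-11). Its difference in LPS+ApoA-I against LPS missed the threshold (log2 fold change -0.13, 95% interval -0.25 to -0.01, edgeR adjusted p = 0.0608); it passed without the library LPS 4 (-0.18, edgeR adjusted p = 0.00834), with DESeq2 (-0.15, adjusted p = 0.0101) and under 4 other alternatives, and was 0.03 with library totals.

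The adaptor gene Myd88 (ENSRNOG00000013634) and the p65 gene Rela (ENSRNOG00000030888) changed little, and their direction in LPS against Control turned with the scaling. Myd88 had 95.7, 96.3, 102 and 95.7 CPM in LPS+ApoA-I, 88.4, 85.4, 85.0 and 93.2 in LPS, 81.6, 87.3, 85.7 and 87.0 in ApoA-I and 75.9, 80.3, 74.4 and 78.4 in Control libraries. On this scale LPS+ApoA-I libraries were the highest and Control libraries the lowest. Myd88 differed in LPS against Control by 0.19 log2 units with TMM (edgeR adjusted p = 0.00159) and by -0.19 with library totals (edgeR adjusted p = 0.0178), so no direction is given for it. In LPS+ApoA-I against LPS it was higher under both, by 0.15 (edgeR adjusted p = 0.0160) and 0.29 log2 units (edgeR adjusted p = 0.00131), but the TMM call was lost without the library LPS 3 (0.13, edgeR adjusted p = 0.0522) or LPS+ApoA-I 3 (0.13, edgeR adjusted p = 0.0583).

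Rela had 114, 121, 110.0 and 106 CPM in LPS+ApoA-I, 126, 131, 135 and 140.2 in LPS, 131, 117, 125 and 129.8 in ApoA-I and 115, 133, 111 and 112 in Control libraries. LPS+ApoA-I libraries were below all LPS libraries, while Control libraries overlapped with every other group. LPS against Control gave 0.18 log2 units with TMM (edgeR adjusted p = 0.0127) and -0.20 with library totals (edgeR adjusted p = 0.0363). In LPS+ApoA-I against LPS, Rela was lower by TMM (log2 fold change -0.24, SE 0.06, edgeR adjusted p = 0.00227), a call lost with library totals (-0.09, edgeR adjusted p = 0.374). LPS+ApoA-I against Control left Rela without a call (log2 fold change -0.07, 95% interval -0.19 to 0.06, edgeR adjusted p = 0.353), although library totals gave one (-0.30, edgeR adjusted p = 0.00377).

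Nfkb1 (ENSRNOG00000023258), which encodes the p105 precursor of p50, was high wherever LPS was present. Its level was 609.6, 585, 574 and 561 in LPS+ApoA-I, 552, 582, 538 and 542 in LPS, 301, 269, 276 and 268 in ApoA-I and 242, 244, 231 and 272 CPM in Control libraries. The LPS+ApoA-I and LPS libraries overlapped, and both lay above all others. It rose 2.24-fold in LPS against Control (log2 fold change 1.16, SE 0.05, edgeR adjusted p = 7.41e-15). In LPS+ApoA-I against LPS it did not pass the test (0.07 log2 units, 95% interval -0.04 to 0.18, edgeR adjusted p = 0.252); with library totals it was called higher, at 0.22 (edgeR adjusted p = 0.00844), and with limma on log2(TPM + 1) at 0.22 (adjusted p = 0.0157).

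Nfkb2 (ENSRNOG00000019311), which encodes the p100 precursor of p52, had 445 to 492 CPM in LPS+ApoA-I, 476 to 519.6 in LPS, 193 to 201 in ApoA-I and 159 to 194 in Control libraries. The 2 groups with LPS overlapped and stood far above the 2 without. It rose 2.91-fold in LPS against Control (log2 fold change 1.54, SE 0.06, edgeR adjusted p = 2.51e-16). LPS+ApoA-I against LPS gave -0.10 log2 units (95% interval -0.22 to 0.02, edgeR adjusted p = 0.137), a value that was 0.0445 with library totals and was called in a fit of these 2 groups alone (-0.11, edgeR adjusted p = 0.0388).

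Nfkbia (ENSRNOG00000007390), the gene of the inhibitor IkBa, had the largest log2 fold change of the 9 genes in LPS against Control. Its level was 287, 286, 288 and 269 CPM in LPS+ApoA-I, 385, 387, 394 and 379.6 in LPS, 119.7, 119, 119 and 118 in ApoA-I and 108, 115, 103 and 121 in Control libraries. The groups with LPS did not overlap with each other or with the rest, and ApoA-I libraries lay inside the Control range. Nfkbia rose 3.46-fold in LPS against Control (log2 fold change 1.79, SE 0.05, edgeR adjusted p = 4.72e-19). It fell in LPS+ApoA-I against LPS to 0.731 times the level with LPS alone (log2 fold change -0.45, SE 0.05, edgeR adjusted p = 3.27e-08). LPS+ApoA-I cells held 2.53 times the Control level (log2 fold change 1.34, SE 0.05, edgeR adjusted p = 1.47e-16).

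Tnfaip3 (ENSRNOG00000049517), the gene of the inhibitor A20, followed the same order of groups. It had 179.5, 175, 188 and 177 CPM in LPS+ApoA-I, 244, 256, 233 and 225 in LPS, 100.2, 102, 98.8 and 102 in ApoA-I and 85.8, 97.3, 91.7 and 101 in Control libraries. Every LPS library exceeded every LPS+ApoA-I library, and ApoA-I overlapped with Control. Tnfaip3 rose 2.55-fold in LPS against Control (log2 fold change 1.35, SE 0.05, edgeR adjusted p = 5.22e-16) and fell in LPS+ApoA-I against LPS to 0.751 times the level with LPS alone (log2 fold change -0.41, SE 0.05, edgeR adjusted p = 7.87e-07). The calls of both inhibitor genes in these comparisons held under all 27 alternatives; for LPS+ApoA-I against LPS the log2 fold changes were -0.47 to -0.30 for Nfkbia and -0.44 to -0.26 for Tnfaip3.

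In LPS+ApoA-I against LPS, 6 of the 9 genes passed the test, where 51.4% of all tested genes did. Tlr4 and Myd88 were higher (26.4% of all tested genes were), and Cd14, Rela, Nfkbia and Tnfaip3 were lower (24.9% were), of which the calls of Cd14 and Rela were lost with library totals and with TPM. No member changed by more than 1 log2 unit, against 10.3% of all tested genes. The median log2 fold change was -0.13 over the 9 genes and 0.03 over all tested genes. LPS against Control and LPS+ApoA-I against LPS use the same LPS libraries, so their values are given side by side only.

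LPS+ApoA-I against ApoA-I measured the response to LPS when ApoA-I was present too, in libraries that LPS against Control does not use. All 9 genes passed again, where 69.4% of all tested genes did: 7 were higher (34.5% of all tested genes) and Tlr4 and Rela were lower (34.8%). Cd14, Nfkb1, Nfkb2 and Nfkbia changed by more than 1 log2 unit, 4 of 9 against 22.6% of all tested genes, but 0 of 9 did with library totals or with limma on log2(TPM + 1), where the largest absolute values were 0.958 and 0.887. Rela's call, at -0.16 log2 units (edgeR adjusted p = 0.0274), was lost without any 1 of ApoA-I 1 (-0.14, edgeR adjusted p = 0.0701), ApoA-I 4 (-0.14, edgeR adjusted p = 0.0666), LPS+ApoA-I 3 (-0.15, edgeR adjusted p = 0.0641) or LPS+ApoA-I 4 (-0.13, edgeR adjusted p = 0.0943), without Control 4 and ApoA-I 4 together (-0.14, edgeR adjusted p = 0.0565), and with the log2 share of 8 abundant, co-varying genes as a covariate (-0.03, edgeR adjusted p = 0.654). Rela was called lower with library totals (-0.45, edgeR adjusted p = 6.71e-05) and with limma on log2(TPM + 1) (-0.51, adjusted p = 4.65e-05). Myd88, at 0.19 with TMM, was -0.10 with library totals, without a call (edgeR adjusted p = 0.206). With limma on log2(TPM + 1) Myd88 was called lower (-0.17, adjusted p = 0.0253). LPS+ApoA-I against Control called 8 of the 9 genes (69.6% of all tested genes), with 7 higher (34.4%), Tlr4 lower (35.2%) and Rela without a call; Myd88, at 0.33, was at 0.10 with library totals (edgeR adjusted p = 0.212). The same 4 genes changed there by more than 1 log2 unit, against 23.5% of all tested genes; with limma on log2(TPM + 1), Nfkb2 and Nfkbia alone did. The log2 response with ApoA-I was 50% of that without it for Tlr4, 62.1% for Tnfaip3, 63.9% for Cd14, 69.7% for Nfkbia and 81.1% for Nfkb2. For Nfkb1 it was 91.6%, for Tlr2 93.4% and for Myd88 100%, and for Rela -88.6%, since its sign turned. The value of Myd88 rests on small responses whose direction depends on the scaling. For Rela only the direction of the response without ApoA-I does. With library totals Rela's response was -0.20 without ApoA-I and -0.45 with it, so its sign did not turn there. All these percentages are with TMM. With library totals the response of Tlr2 was 0.40 with ApoA-I and 0.35 without it, and that of Nfkb1 0.77 and 0.78. Those of Tlr4, Cd14, Nfkb2, Nfkbia and Tnfaip3 stayed nearer to 0 with ApoA-I.

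**Figure D3:**
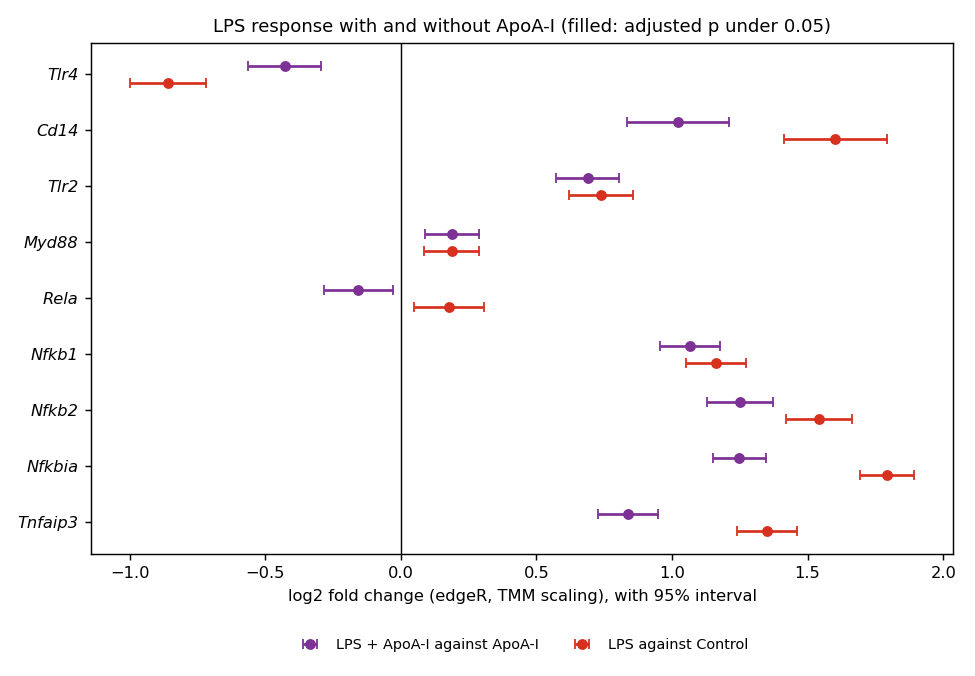
Log2 fold change (x axis, TMM scaling) of each gene in LPS+ApoA-I against ApoA-I (purple, upper) and LPS against Control (red, lower), with 95% intervals from edgeR; filled points passed the test. Tlr4, Cd14, Nfkbia and Tnfaip3 lie nearer to 0 with ApoA-I, while the intervals of Nfkb1, Tlr2 and Myd88 overlap.

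The interaction tested whether the 2 responses differ. It passed in 6 of the 9 genes, where 41.0% of all tested genes passed, with a positive value for Tlr4 (20.8% of all tested genes were called positive) and a negative one for Cd14, Rela, Nfkb2, Nfkbia and Tnfaip3 (20.2% were called negative). No value of a member was past 1 log2 unit, against 10.1% of all tested genes. The value was 0.43 log2 units for Tlr4 (SE 0.09, edgeR adjusted p = 0.000812), -0.58 for Cd14 (SE 0.13, edgeR adjusted p = 0.000861), -0.54 for Nfkbia (SE 0.07, edgeR adjusted p = 9.11e-07) and -0.51 for Tnfaip3 (SE 0.07, edgeR adjusted p = 1.08e-05). These 4 calls held under every alternative tried. The calls of Rela (-0.34, edgeR adjusted p = 0.00367) and Nfkb2 (-0.29, edgeR adjusted p = 0.00651) were lost with library totals (adjusted p = 0.119 and 0.147) and with limma on log2(TPM + 1) (adjusted p = 0.107 and 0.115). No interaction was called for Nfkb1 (-0.10, 95% interval -0.25 to 0.06), Tlr2 (-0.05, -0.21 to 0.12) and Myd88 (0.00089, -0.14 to 0.14), and these intervals still allow differences of more than 0.1 log2 units.

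ApoA-I against Control asked whether ApoA-I moves the pathway in cells that received no LPS. None of the 9 genes passed edgeR's test, where 4.27% of all tested genes did (2.5% higher, 1.77% lower, and 0.286% by more than 1 log2 unit). At an unadjusted p under 0.05 there were 4, all higher in ApoA-I: Cd14 (log2 fold change 0.24, 95% interval 0.05 to 0.42), Nfkb2 (0.19, 0.07 to 0.31), Nfkb1 (0.17, 0.06 to 0.28) and Myd88 (0.14, 0.04 to 0.25). The share of all tested genes at that unadjusted threshold was not worked out, so the count has no background beside it. DESeq2 called these same 4 genes, with adjusted p from 0.0131 to 0.0493, where it called 819 of 17282 genes. Without the library Control 4, edgeR called Cd14 (0.325, adjusted p = 0.0220), Nfkb1 (0.22, adjusted p = 0.00748) and Nfkb2 (0.25, adjusted p = 0.00541), where it called 775 of 11999 tested genes. Without ApoA-I 4 it called Cd14 (0.32, adjusted p = 0.0274). Leaving out some of the other single libraries lowered these values, Cd14 down to 0.156, with edgeR adjusted p up to 0.441. Nfkb1 went down to 0.13 (edgeR adjusted p up to 0.245) and Nfkb2 to 0.15 (up to 0.224). Control 4 held the highest Cd14, Nfkb1, Nfkb2, Nfkbia and Tnfaip3 values of its group, and ApoA-I 4 the lowest Cd14 value of its own. With both left out, Cd14 differed by 0.40 log2 units (edgeR adjusted p = 0.00107). Leaving out the highest Control and the lowest ApoA-I value of Cd14 had to widen its difference, so this result is no support for one. The 8 abundant genes held 3.91% ± 3.71 of all counts in ApoA-I and 7.87% ± 3.21 in Control libraries (SD, n = 4 each); with their log2 share as a covariate, edgeR called none of the 9 genes.

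**Figure D4:**
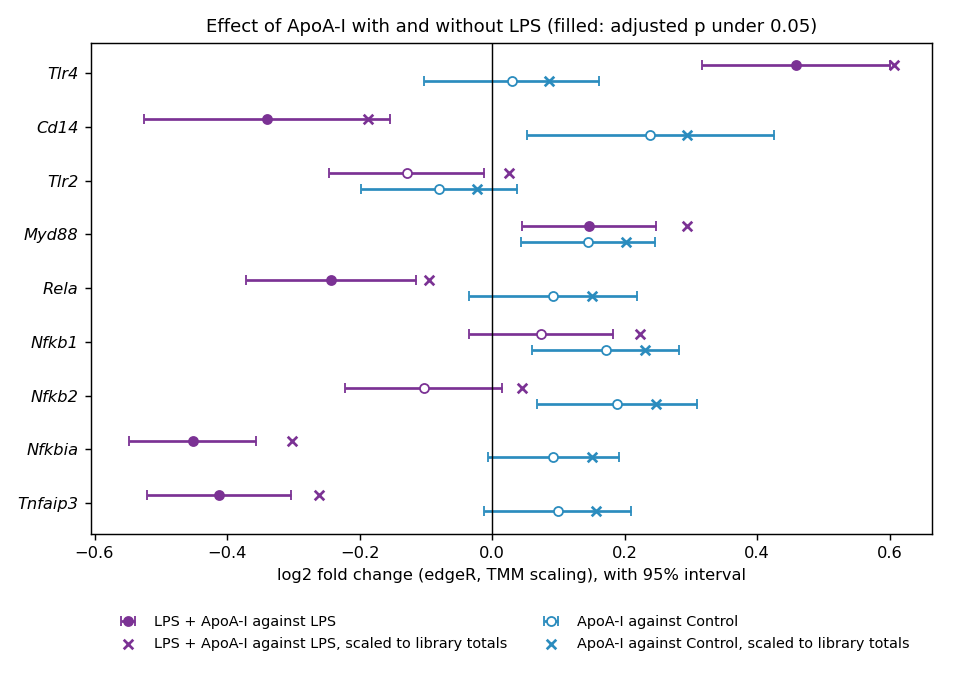
Log2 fold change of each gene in LPS+ApoA-I against LPS (purple) and ApoA-I against Control (blue), with 95% intervals from edgeR (TMM scaling; filled points passed the test); crosses are the values with library totals. The 3 purple points farthest from 0 are Tlr4, Nfkbia and Tnfaip3, and no blue point is filled.

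Ratios of 2 transcripts within a library do not depend on how libraries are scaled, and show which members changed unequally. The ratio of Cd14 to Tlr4, in TPM, was 127.9 ± 12.5 in LPS+ApoA-I, 223 ± 22.0 in LPS, 46.6 ± 6.36 in ApoA-I and 40.2 ± 4.41 in Control libraries (SD, n = 4 each). The LPS+ApoA-I libraries, at 115 to 145, were below all LPS libraries, at 190.2 to 238. Tlr2 to Tlr4 stood at 17.8 ± 1.99 in LPS+ApoA-I, 27.1 ± 3.57 in LPS, 8.24 ± 0.273 in ApoA-I and 8.83 ± 0.427 in Control libraries (SD, n = 4 each). Both receptor ratios thus differed between LPS+ApoA-I and LPS by more than the spread of either group.

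Nfkbia was set against the subunit genes, and the subunit genes against each other. The ratio of Nfkbia to Nfkb1 was 1.27 to 1.35 in LPS+ApoA-I and 1.81 to 1.98 in LPS libraries, against 1.07 to 1.205 in ApoA-I and 1.21 to 1.28 in Control libraries. The 2 groups with LPS did not overlap, and the mean ratio in LPS+ApoA-I was 0.6905 times that in LPS. Nfkb1 to Rela was 3.29 ± 0.1545 in LPS+ApoA-I and 2.63 ± 0.170 in LPS libraries, and 1.40 ± 0.0702 in ApoA-I and 1.33 ± 0.153 in Control libraries (SD, n = 4 each). Here LPS+ApoA-I libraries (3.06 to 3.405) were above all LPS libraries (2.45 to 2.79). Nfkb2 to Nfkb1 was 1.01 to 1.08 in LPS+ApoA-I and 1.10 to 1.23 in LPS libraries, also without overlap.

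The 2 inhibitor genes kept a nearly fixed proportion when ApoA-I was added. Tnfaip3 to Nfkbia was 0.179 ± 0.006315 in LPS+ApoA-I and 0.173 ± 0.00910 in LPS libraries (SD, n = 4 each), with overlapping ranges. Without LPS it was 0.238 ± 0.00401 in ApoA-I and 0.239 ± 0.0111 in Control libraries (SD, n = 4 each), above every library with LPS. Nfkbia to Rela, the inhibitor against the p65 subunit, was 4.29 ± 0.181 in LPS+ApoA-I, 4.98 ± 0.2475 in LPS, 1.63 ± 0.0838 in ApoA-I and 1.63 ± 0.155 in Control libraries (SD, n = 4 each).

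**Figure D5:**
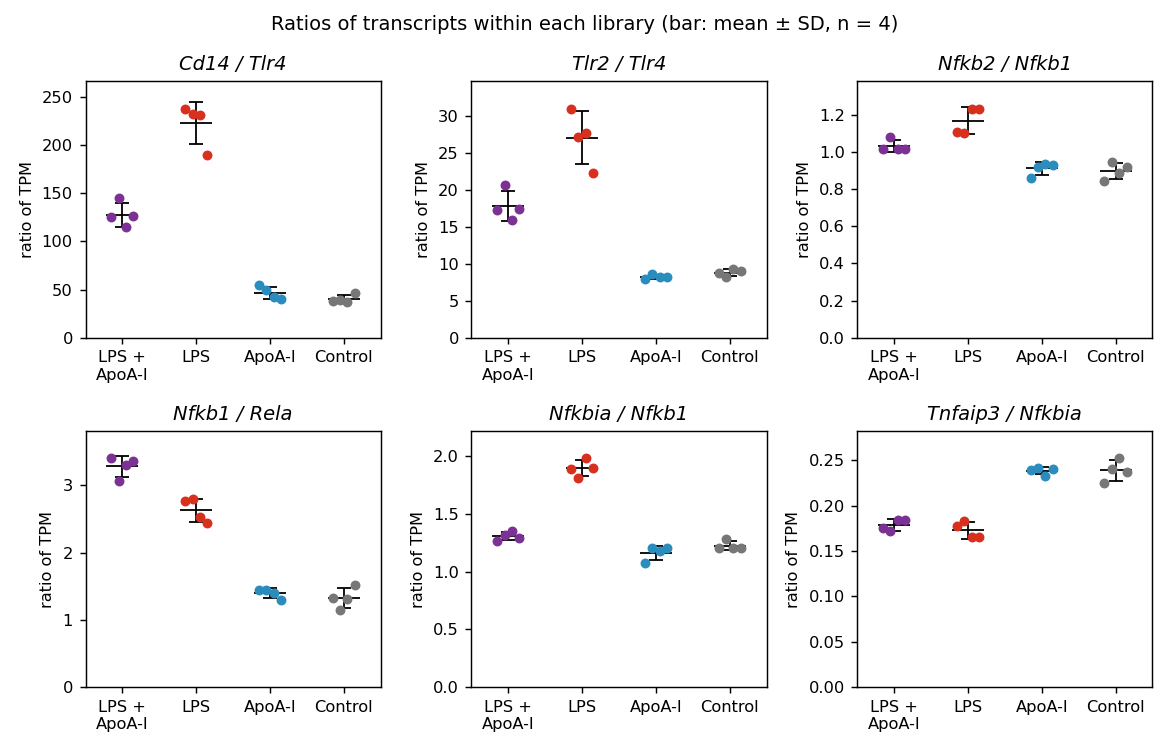
Ratio of the TPM of 2 genes in each library (points), with the mean ± SD of the 4 libraries of LPS+ApoA-I, LPS, ApoA-I and Control. Cd14 to Tlr4 and Nfkbia to Nfkb1 are lower in LPS+ApoA-I than in LPS libraries, Nfkb1 to Rela is higher, and Tnfaip3 to Nfkbia overlaps.

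Levels of different genes can be set side by side as TPM, transcript abundances scaled for gene length and library size. Cd14 was by far the most abundant of the 9 in every group, with 2498 ± 53.3 TPM in LPS+ApoA-I, 2871 ± 32.9 in LPS, 1583 ± 277 in ApoA-I and 1274 ± 174 in Control libraries (SD, n = 4 each). By mean TPM it ranked 64th in LPS+ApoA-I, 51st in LPS, 107th in ApoA-I and 134th in Control libraries. Tlr4 had the lowest mean in every group, though its range overlapped with that of Tnfaip3 in ApoA-I and in Control libraries, with 19.7 ± 2.06 TPM in LPS+ApoA-I, 13.0 ± 1.42 in LPS, 33.9 ± 1.88 in ApoA-I and 31.7 ± 2.59 in Control libraries (SD, n = 4 each). In LPS libraries Nfkbia (362 ± 12.4 TPM) and Tlr2 (348 ± 14.4 TPM) followed Cd14 and overlapped, then came Nfkb2 (224 ± 17.0 TPM) and Nfkb1 (191 ± 9.50 TPM), and last Rela (72.9 ± 6.30 TPM), Tnfaip3 (62.4 ± 2.76 TPM) and Myd88 (56.2 ± 5.02 TPM) ahead of Tlr4 (SD, n = 4 each). The ranges of Tnfaip3 and Myd88 overlapped there. In Control libraries Tlr2 (279 ± 11.7 TPM) came after Cd14, ahead of Nfkbia (140.5 ± 12.8 TPM), Nfkb1 (115 ± 9.04 TPM) and Nfkb2 (103 ± 11.5 TPM), of which the last 2 overlapped (SD, n = 4 each).

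Within groups, the members' deviations from their group means were correlated most for Nfkb2 and Nfkbia (Pearson's r = 0.82 over the 16 libraries), Cd14 and Nfkb1 (r = 0.69) and Nfkb1 and Nfkbia (r = 0.68), while Tlr2 and Rela stood at -0.52. These are descriptions of the same 16 libraries, which share their scaling.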

How the data were processed

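The authors deposited expected (estimated) counts per gene and TPM per gene, 1 column per library, for 16 libraries. Cutadapt 1.8.1, STAR 2.7.10b, RSEM 1.3.1 and the mouse build mm10 appear in the submitters' processing notes with no role or order. The identifiers are those of Ensembl rat genes, and the sources used here do not name the annotation behind them. An annotation that does not match the identifiers would affect counts of single genes. The members and lists were chosen with earlier results of these data known.

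The deposited expected counts were rounded (at a tolerance of 0.005, 3.24% were not whole). Genes were kept by filterByExpr with a minimum count of 10, leaving 11902 of 30560. One group-means model over the 16 libraries was tested with edgeR 4.0.16 (R 4.3.3), using TMM factors and the quasi-likelihood F test, and Benjamini-Hochberg adjustment covered every tested gene. SEs were obtained as the absolute log2 fold change over the root of F. The deposited TPM values were used for levels between genes, for ratios within a library, and as log2 values in limma 3.58.1. DESeq2 1.42.0 was another alternative. The edgeR script was tested on simulated data. Named are the 9 members. The planned lists of other pathway genes and of cell type markers, and the search for genes of like pattern, were not used, because the name table (RefSeq, GRCr8) holds an Ensembl identifier for 0 of its 47357 genes. No 2 replicates of a group agreed within counting noise: over 24 pairs, chi-square was 3.14 to 96.2 times its degrees of freedom. The 8 abundant genes, a set defined after values had been seen, average at least 1000 CPM, and their within-group deviations correlate above 0.95 with those of the gene with the highest mean CPM.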

Additional observations from a re-analysis of the deposited data

Results flagged for a closer look

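Of 36 groups of 4 libraries (9 genes in 4 conditions), 2 had a library far from the others. The 9 genes share the same libraries, and the number that chance would give was not worked out. Myd88 reached 101.5 CPM in LPS+ApoA-I 3, where the other 3 libraries had 95.7 to 96.3 CPM. Nfkbia fell to 269.1 CPM in LPS+ApoA-I 4, where the others had 286.3 to 287.8 CPM.

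By edgeR's interaction test, 6 genes had an ApoA-I effect in LPS-treated cells unlike that in cells not given LPS, where 41.0% of all tested genes passed. With library totals, and with limma on log2(TPM + 1), 4 of the 9 genes passed, without Rela and Nfkb2. Of the 11902 tested genes, 4535 passed with library totals and 4143 with limma on log2(TPM + 1). In log2 units the interaction was 0.43 for Tlr4, -0.58 for Cd14, -0.34 for Rela, -0.29 for Nfkb2, -0.54 for Nfkbia and -0.51 for Tnfaip3, with edgeR adjusted p from 9.11e-07 to 0.00651.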

How the results depend on the processing

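Of the 54 log2 fold changes of members (9 genes in 6 comparisons), 31 kept their direction and their side of the threshold under all alternatives (27, or 26 for the interaction). Library totals reversed Myd88 (-0.19) and Rela (-0.20) in LPS against Control, Tlr2 (0.025) and Nfkb2 (0.0445) in LPS+ApoA-I against LPS, Myd88 in LPS+ApoA-I against ApoA-I (-0.10) and Tlr2 in the interaction (0.048). With limma on log2(TPM + 1) the same values were -0.24, -0.25, 0.00057, 0.037, -0.17 and 0.00096, and on log2(TPM + 0.1) they were -0.24, -0.25, 0.00057, 0.038, -0.17 and 0.00097. The interaction of Myd88 was -0.024 with RLE size factors, -0.026 with DESeq2 and -0.020 to 0.030 when single libraries were left out. Without Control 3, Tlr4 in ApoA-I against Control was -0.0020, and over single libraries left out it ranged from -0.0020 to 0.048. With the log2 share of the 8 abundant genes as a covariate, chosen after the data had been seen, ApoA-I against Control gave 0.00022 for Tlr2 and -0.0023 for Rela. The cause of these changes was not tested.

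The number of genes called in ApoA-I against Control, 508, was 819 with DESeq2, 310 on log2(TPM + 1), 238 on log2(TPM + 0.1), 94 with only the 2 groups fitted, 990 without Control 4 and ApoA-I 4, 224 with the covariate, and 186 to 775 with single libraries left out (186 without ApoA-I 1, and 284, 325, 202 and 775 without Control 1, 2, 3 and 4). Members called there numbered 0, but 4 with DESeq2, 3 without Control 4 and ApoA-I 4 together, and 0 to 3 with single libraries left out. In the other 5 comparisons (the interaction included) both counts stayed within 1.5 times. The share of higher genes among the calls was, with library totals and with TMM, 83.1% and 58.5% (ApoA-I against Control), 26.7% and 49.8% (LPS+ApoA-I against ApoA-I), 31.2% and 49.4% (LPS+ApoA-I against Control), and 65.1% and 50.7% in the interaction. With the replicate number as a block, ApoA-I against Control gave 469 calls and LPS+ApoA-I against LPS 6075 against 6114. The block changed no member's call, and deviations of same-numbered libraries were at most weakly correlated (r from -0.179 to 0.176). Differences between single libraries can hide a shared origin, so this does not settle whether the numbers pair samples. All 288 ratio differences recomputed without a library or from counts stayed within 1 SD of the value from all libraries. Leaving out a single library cannot move a group mean that far, so that part could not fail and says nothing about stability. Ratios from counts differ from those of TPM only through gene lengths.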
